A study of Danio rerio with 6 samples.

Results

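The genes described here encode hormones, hormone-processing enzymes and transcription factors of the endocrine pancreas of zebrafish. They were chosen by symbol from the deposited gene table, and 10 of its 37898 genes carried a listed symbol, with none of the 10 symbols missing. The 3 hormone genes were *ins*, *gcga* and *gcgb*, the 2 prohormone convertase genes were *pcsk1* and *pcsk2*, and the 5 transcription factor genes were *pdx1*, *neurod1*, *isl1*, *pax6b* and *nkx2.2a*. RNA came from whole larvae at 4 days post fertilization (dpf), from 3 libraries of homozygous *sart3* smu471 mutants and 3 libraries of WT siblings. Both groups came from crosses between heterozygous parents and were told apart by melting-curve genotyping. The smu471 allele is a nonsense mutation of *sart3*, which encodes a factor that recycles snRNPs for the spliceosome. The mutation was present in every cell of the larva, and no islet cells were isolated. The number of larvae in a library is not given in the sources used here, and the sources do not say that the replicates came from separate clutches, so p-values cover the spread between these libraries only.

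The endocrine pancreas consists of islet cells that release peptide hormones into the blood. Beta cells make insulin, which lowers blood glucose, and alpha cells make glucagon, which raises it. Each hormone is made as a longer precursor that prohormone convertases cut inside secretory granules. Islet cells form from progenitors marked by Pdx1, and NeuroD1, Isl1, Pax6b and Nkx2.2a are needed at later steps of endocrine differentiation. In zebrafish these transcription factors are not particular to the islet: *neurod1*, *isl1* and *pax6b* are also transcribed in the retina and in neurons, and *isl1* marks motor neurons and cells of the pituitary. In RNA from whole larvae, fewer cells of a type and less RNA per cell cannot be told apart.

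The sibling libraries held 17586740 to 18310233 counts on genes, and the mutant libraries held 16008788 to 17387137. Of all genes, 24809 passed edgeR's filter on low counts and were tested by quasi-likelihood. Genes with a Benjamini-Hochberg adjusted p under 0.05 were called. *sart3* itself stood at 66.1, 68.8 and 70.2 CPM (counts scaled to a common library size) in siblings and at 53.4, 48.1 and 49.3 CPM in mutants, a log2 fold change of -0.44 (SE 0.07, adjusted p = 0.0023 from edgeR). Sibling library 1 stood apart: 2206 of the 24809 tested genes were over 1.5-fold below both other siblings there, against 512 to 905 in the other libraries when each was set against its own group. Where this library decided a value named here, the value is also given without it. All 9 markers of larval organs were detected and tested, among them *actc1b* of muscle, *fabp10a* of liver and *cryaa* of lens. Of the 9, 3 (33.3%) were called higher in mutants and 3 (33.3%) lower, beside 13.6% and 14.3% over all tested genes. Their summed level was 20465 to 22915 CPM in siblings and 25671 to 26797 CPM in mutants.

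Of the 10 islet genes, 9 could be tested, 1 was higher in mutants (*gcgb*), 4 were lower (*pdx1*, *neurod1*, *isl1* and *pax6b*) and 4 did not pass. Over all 24809 tested genes, 13.6% were called higher and 14.3% were called lower. The median log2 fold change was -0.20 over the 9 islet genes and 0.01 over all tested genes. Mutant and sibling libraries did not overlap for 6 of the 9 genes, and the share over all tested genes was 45.2%. All 4 genes called lower were transcription factor genes, while the 2 tested hormone genes had positive fold changes. With sibling library 1 left out, the number called lower was 5, because *pcsk1* and *pcsk2* passed and *pdx1* did not.

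**Figure D1:**
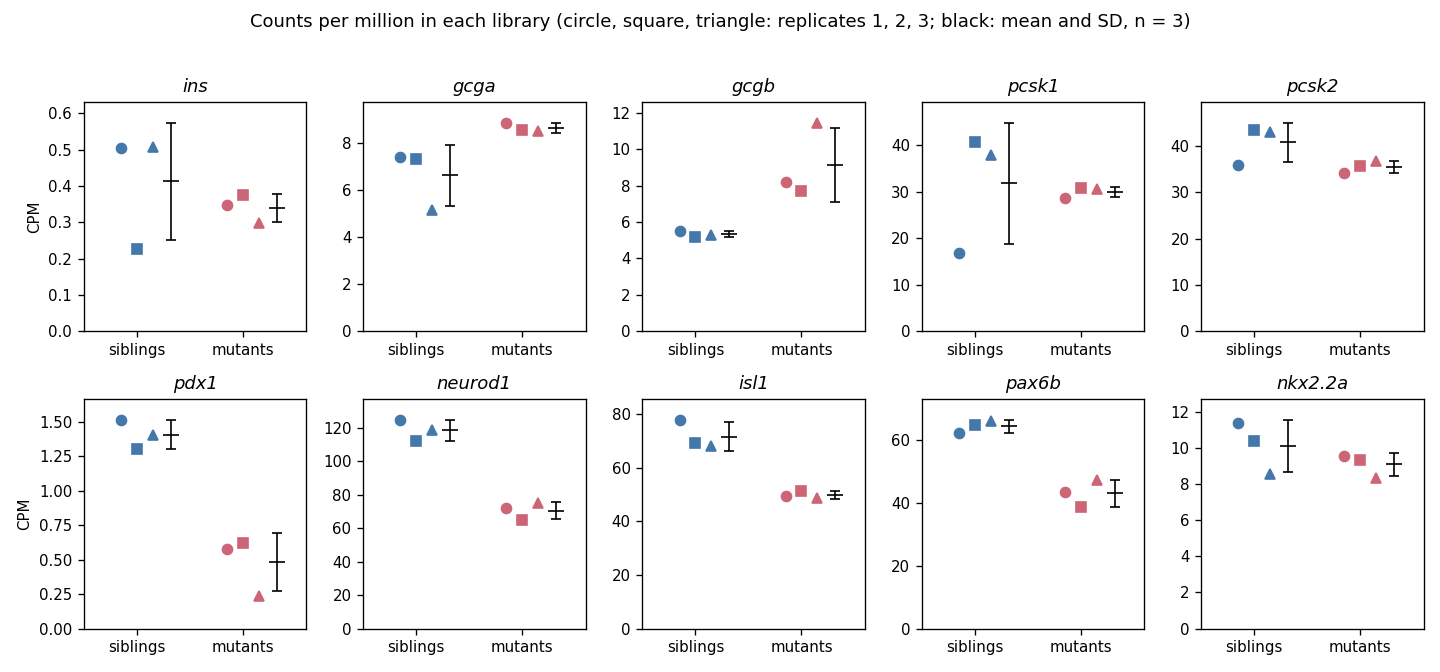
CPM of the 10 islet genes in each of the 6 libraries, with a y axis from 0 in every panel. Each point is 1 library, marked by replicate number, and the black bar is the mean and SD of 3. The mutant points of *gcgb* lie above the sibling points, those of *pdx1*, *neurod1*, *isl1* and *pax6b* lie below them, and *pcsk1* has 1 low sibling point at 16.9.

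The count of *ins* was close to the limit of detection, and whether the gene model or the handling of reads with several matches lowered it was not tested. *ins* (ENSDARG00000035350, chromosome 5 from 37854685 to 37857696, plus strand) encodes the main insulin of zebrafish. It had 9, 4 and 9 counts in siblings and 6, 6 and 5 counts in mutants, or 0.505, 0.226 and 0.507 CPM against 0.347, 0.374 and 0.299 CPM. The mutant values lay between the lowest and the highest sibling. Summed over each group, the 22 sibling counts have an exact Poisson 95% interval of 13.8 to 33.3, and the 17 mutant counts one of 9.9 to 27.2, for counting error only. With so few counts *ins* was not among the tested genes, and when every gene with a count was fitted its log2 fold change was -0.30 (adjusted p = 0.765 from edgeR). A difference in *ins* was not detectable at this depth.

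Of the glucagon genes, *gcgb* was higher in mutants and *gcga* did not pass. *gcga* (ENSDARG00000079296, chromosome 22 from 11617520 to 11626018, minus strand) and *gcgb* (ENSDARG00000040907, chromosome 9 from 51265283 to 51271597, plus strand) are the paired zebrafish genes for glucagon. *gcgb* stood at 5.50, 5.20 and 5.30 CPM in siblings and at 8.22, 7.73 and 11.5 CPM in mutants. All 3 mutants were above all 3 siblings, and mutant 3 was the highest library. Mutants had a 1.71-fold higher level (log2 fold change 0.78, SE 0.19, 95% interval 0.35 to 1.21, adjusted p = 0.0162 from edgeR). The call was narrow: the adjusted p was 0.0522 without sibling 3 and 0.0503 without mutant 3, where the log2 fold change was 0.58.

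*gcga* stood at 7.40, 7.29 and 5.13 CPM in siblings and at 8.85, 8.54 and 8.48 CPM in mutants. The groups did not overlap, but sibling 3 lay well below the other siblings and the gene did not pass (log2 fold change 0.38, SE 0.18, 95% interval -0.02 to 0.79, adjusted p = 0.146 from edgeR). The ratio of *gcgb* to *gcga* within a library did not separate the groups either. Its log2 value was -0.43, -0.49 and 0.05 in siblings and -0.11, -0.14 and 0.44 in mutants, a difference of 0.35 (p = 0.3, exact permutation test, two-sided, where 3 against 3 cannot go below 0.1). This difference was 0.16 without mutant 3 and 0.52 without sibling 3. The ratio of *ins* to both glucagon genes together differed by -0.77 on the log2 scale with overlapping libraries (p = 0.3, exact permutation test), and it rests on the few counts of *ins*. It was -0.48 without sibling 3 and -1.19 without sibling 2. 5 such ratios were computed, and adjusted over the 5 these p-values were both 0.375.

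Among 6 other islet hormone symbols, 5 were in the table and 3 had enough counts to be tested, with none called. *sst1.1*, which encodes a somatostatin, the hormone of delta cells, stood at 20.03, 22.0 and 20.2 CPM in siblings and at 26.3, 23.5 and 22.4 CPM in mutants. Its mutant libraries all lay above the siblings, but it did not pass (log2 fold change 0.22, SE 0.10, adjusted p = 0.154 from edgeR). A second somatostatin gene, *sst1.2*, had 5.29 ± 0.578 CPM in siblings and 5.93 ± 0.149 CPM in mutants (SD, n = 3; adjusted p = 0.507 from edgeR). *ucn3l*, the urocortin 3 gene, whose product is released by beta cells in mammals, had 2.08 ± 0.446 CPM against 1.37 ± 0.338 CPM (SD, n = 3; log2 fold change -0.60, adjusted p = 0.198 from edgeR). The second insulin gene *insb* had 0 counts in all 6 libraries, which allows up to 3 counts in each. *ghrl*, the ghrelin gene, had 8, 8 and 4 counts in siblings and 0, 1 and 4 in mutants and was not tested. At an unadjusted p under 0.05 from edgeR, 9857 of the 24809 tested genes passed, and none of these 3 hormones did. Their unadjusted p from edgeR was 0.0657 for *sst1.1*, 0.352 for *sst1.2* and 0.0928 for *ucn3l*.

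**Figure D2:**
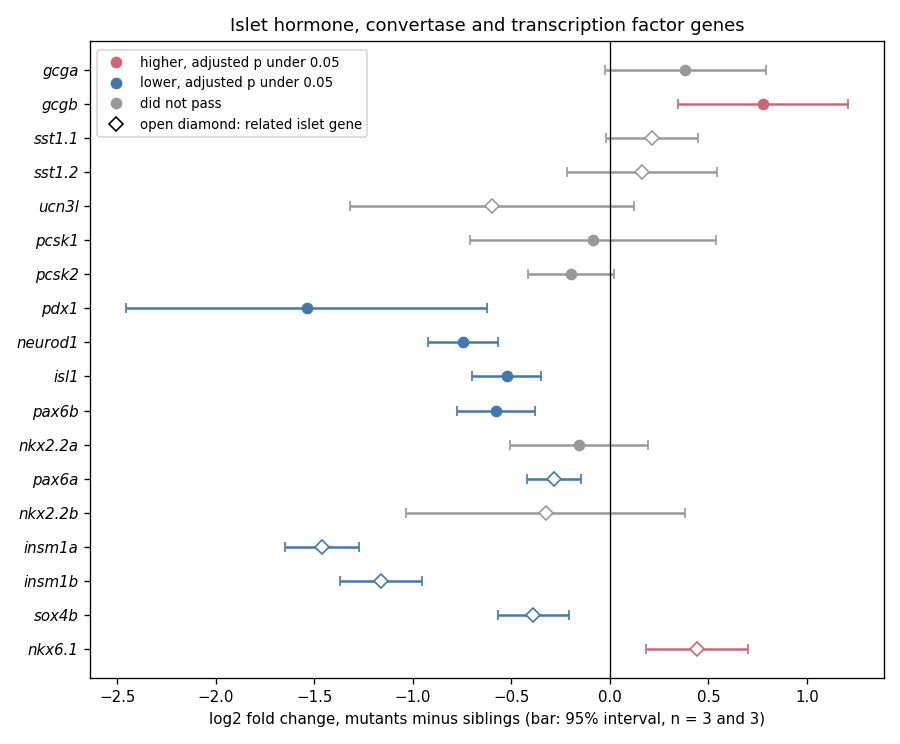
Log2 fold changes of the 9 tested islet genes (filled circles) and of related islet genes (open diamonds), mutants minus siblings, with 95% intervals from edgeR and 3 libraries in each group. Red and blue mark genes called higher and lower. The intervals of *gcgb* (0.35 to 1.21) and *nkx6.1* lie above 0, while those of *pdx1*, *neurod1*, *isl1*, *pax6b*, *pax6a*, *insm1a*, *insm1b* and *sox4b* lie below 0.

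The convertase genes did not pass the test, and their values depended on sibling library 1. *pcsk1* (ENSDARG00000002600, chromosome 21 from 11684830 to 11722343, plus strand) encodes a convertase that cuts proinsulin. It stood at 16.9, 40.8 and 38.0 CPM in siblings and at 28.8, 30.8 and 30.5 CPM in mutants. Sibling 1 was the lowest of all 6 libraries and the other siblings were the highest, so the mutants lay between them. With all libraries the log2 fold change was -0.09 (SE 0.27, 95% interval -0.71 to 0.54, adjusted p = 0.845 from edgeR). Without sibling 1 it was -0.39 and passed (adjusted p = 0.0111 from edgeR).

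*pcsk2* (ENSDARG00000019451, chromosome 13 from 912123 to 977652, plus strand) encodes the convertase that cuts proglucagon in alpha cells. It stood at 35.8, 43.5 and 43.0 CPM in siblings and at 34.2, 35.6 and 36.8 CPM in mutants, and only sibling 1 lay within the mutant range. The log2 fold change was -0.20 (SE 0.10, 95% interval -0.42 to 0.02, adjusted p = 0.161 from edgeR). Without sibling 1 it was -0.28 and passed (adjusted p = 0.029 from edgeR). The log2 ratio of *pcsk1* to *pcsk2* differed between groups by 0.21 with all libraries (p = 1, exact permutation test, two-sided) and by -0.11 without sibling 1.

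*pdx1* showed the largest fold change of the 9 tested islet genes, on few counts. *pdx1* (ENSDARG00000002779, chromosome 24 from 21684189 to 21686706, plus strand) encodes a homeobox factor of pancreatic progenitors, beta cells and the anterior gut. It had 27, 23 and 25 counts in siblings and 10, 10 and 4 counts in mutants, or 1.51, 1.30 and 1.41 CPM against 0.579, 0.623 and 0.239 CPM. Every mutant was below every sibling, and mutant 3 was the lowest. Mutants had a 2.91-fold lower level (log2 fold change -1.54, SE 0.40, 95% interval -2.45 to -0.62, adjusted p = 0.0216 from edgeR). With single libraries left out, the call held without sibling 2 (adjusted p = 0.0433 from edgeR) and without mutant 2 (0.0461). It was lost without sibling 1 (log2 fold change -1.48, adjusted p = 0.0509), sibling 3 (-1.54, 0.0616), mutant 1 (-1.70, 0.0526) or mutant 3 (-1.22, 0.0603).

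Exocrine pancreas markers moved with *pdx1*. Of 16 tested markers of the 17 listed, 15 (93.8%, beside 14.3% over all tested genes) were lower in mutants and *rbpjl* did not pass. The summed level of the list was 4699 to 4992 CPM in siblings and 94.6 to 122.7 CPM in mutants. No marker of this list was at 0 in all libraries. The part of this difference in the *pdx1* value was not tested. The ratio of *ins* to *pdx1* on the log2 scale was -1.58, -2.52 and -1.47 among siblings and -0.74, -0.74 and 0.32 among mutants. The groups did not overlap and differed by 1.48, at the smallest p that 3 against 3 allows (p = 0.1, exact permutation test, two-sided; 0.25 adjusted over the 5 ratios), and both genes had under 30 counts in every library.

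*neurod1*, *isl1* and *pax6b* were lower in mutants by 1.44-fold to 1.68-fold, and each call held in the other tests, scalings and filters and with any single library left out, but none of these changes reached a limit of 1 on the absolute log2 fold change. *neurod1* (ENSDARG00000019566, chromosome 9 from 44291721 to 44295071, minus strand) encodes a basic helix-loop-helix factor of endocrine and neural differentiation. It stood at 124.7, 112.1 and 118.6 CPM in siblings and at 72.2, 64.7 and 74.9 CPM in mutants. The highest mutant was well below the lowest sibling. The level was 1.68-fold lower, with a log2 fold change of -0.75 (SE 0.08, 95% interval -0.92 to -0.57, adjusted p = 0.000218 from edgeR).

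*isl1* (ENSDARG00000004023, chromosome 5 from 40728613 to 40734045, minus strand) encodes a LIM homeobox factor found in all islet cell types. It stood at 77.9, 69.1 and 68.1 CPM in siblings and at 49.4, 51.5 and 48.7 CPM in mutants. The 3 mutants were close together and all lay below the siblings. The level was 1.44-fold lower, with a log2 fold change of -0.52 (SE 0.08, 95% interval -0.70 to -0.35, adjusted p = 0.00143 from edgeR). *isl1* and *ins* (37854685 to 37857696) lie on chromosome 5, as does *sart3* (20453874 to 20481389). Mutants and siblings were sorted by genotype at *sart3*, and the part of linkage to *sart3* in the *isl1* value was not tested.

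*pax6b* (ENSDARG00000045936, chromosome 7 from 15871156 to 15900606, plus strand) encodes a paired-box factor of islet, eye and brain. It stood at 62.2, 65.1 and 66.2 CPM in siblings and at 43.7, 38.7 and 47.2 CPM in mutants. The groups did not overlap, and the siblings were closer together than the mutants. The level was 1.49-fold lower, with a log2 fold change of -0.58 (SE 0.09, 95% interval -0.78 to -0.38, adjusted p = 0.00163 from edgeR).

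The duplicate gene *pax6a*, transcribed mainly in eye and brain, stood at 85.2, 83.4 and 85.1 CPM in siblings and at 69.4, 71.0 and 68.3 CPM in mutants. It was lower as well, by 1.22-fold (log2 fold change -0.28, SE 0.06, adjusted p = 0.00873 from edgeR). The log2 ratio of *pax6b* to *pax6a* was -0.45, -0.36 and -0.36 among siblings and -0.67, -0.88 and -0.53 among mutants. The groups did not overlap and differed by -0.30, which is at the smallest p the design allows (p = 0.1, exact permutation test, two-sided; 0.25 adjusted over the 5 ratios).

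*nkx2.2a* (ENSDARG00000053298, chromosome 17 from 42208623 to 42218652, minus strand) encodes a homeobox factor of endocrine progenitors and of the ventral neural tube. It stood at 11.4, 10.4 and 8.56 CPM in siblings and at 9.55, 9.35 and 8.36 CPM in mutants. The groups overlapped, and the gene did not pass (log2 fold change -0.16, SE 0.15, 95% interval -0.51 to 0.20, adjusted p = 0.496 from edgeR). Its duplicate *nkx2.2b* was low, with 1.65 ± 0.42 CPM in siblings and 1.32 ± 0.186 CPM in mutants (SD, n = 3; adjusted p = 0.478 from edgeR).

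Markers of other tissues that transcribe these factors also differed between the groups. Of 10 retina markers, 9 (90%) were lower in mutants and *crx* did not pass, beside 14.3% lower over all tested genes. Their summed level was 3504 to 4519 CPM in siblings and 1156 to 1289 CPM in mutants. Of 8 neuron markers, 5 (62.5%) were lower. Their summed level was 2868 to 3060 CPM in siblings and 2531 to 2663 CPM in mutants. The neuron markers *stmn1b*, *gap43*, *snap25b* and *syt1a* had log2 fold changes of -0.56, -0.55, -0.51 and -0.40, beside -0.75 for *neurod1*, -0.52 for *isl1* and -0.58 for *pax6b*.

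Of 6 motor neuron markers, *mnx2b* was higher (not without mutant 1, adjusted p = 0.0594 from edgeR) and *isl2b* lower (not without sibling 3, mutant 1 or mutant 3, adjusted p 0.055 to 0.0751), and the summed level was 156 to 166 CPM in siblings and 154 to 173 CPM in mutants, which overlapped. The share of motor neuron markers called was 16.7% in each direction, beside 13.6% higher and 14.3% lower over all tested genes. No listed retina, neuron or motor neuron marker was at 0 in all libraries. *mnx1*, held in the list of other islet transcription factor genes and not in this one, was at 0 in all libraries. Of 10 pituitary markers 4 were tested and 1 (25%), *gh1*, was lower, and *pou1f1*, a defining marker, was at 0 in all libraries. The summed pituitary level was 21.7 to 26.2 CPM in siblings and 16.03 to 18.4 CPM in mutants. Within this sum, *gh1* stood at 15.9 ± 2.49 CPM in siblings and 7.22 ± 0.301 CPM in mutants (SD, n = 3). The median log2 fold change of the 4 tested pituitary markers was 0.19, with 0.58 for *pomca* and 0.26 for *prl*, neither called. The part of these tissues in the levels of *neurod1*, *isl1* and *pax6b* was not tested.

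**Figure D3:**
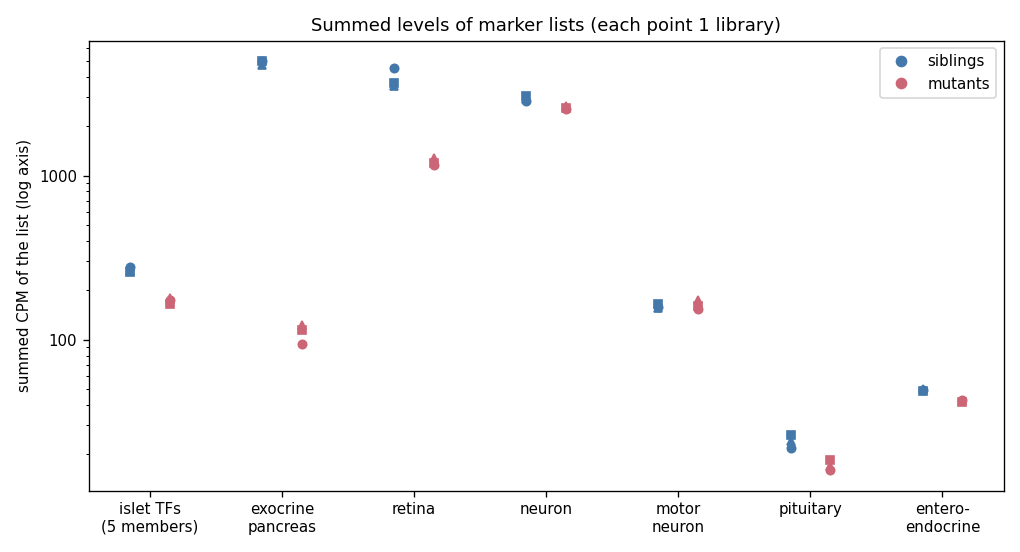
Summed CPM, on a log axis, of the 5 islet transcription factor genes and of 6 marker lists in each library, with siblings in blue and mutants in red. Exocrine pancreas fell from 4699 to 4992 CPM in siblings to 94.6 to 122.7 CPM in mutants. The sums of the 5 islet transcription factor genes and of the retina, neuron, pituitary and enteroendocrine lists were lower by smaller amounts. The motor neuron sums overlapped. Among pituitary markers only *gh1* was called, and the median log2 fold change of the tested ones was 0.19.

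The length-scaled levels gave an order of the 10 genes within each group. In siblings, *neurod1* was the highest with 48.5 ± 3.13 FPKM (counts scaled by gene length and library size, SD, n = 3), followed by *isl1* with 30.9 ± 2.75 and *pcsk2* with 20.8 ± 1.93 FPKM. The next genes were *pcsk1* (12.5 ± 5.02 FPKM), *pax6b* (9.04 ± 0.17 FPKM) and *gcgb* (8.92 ± 0.368 FPKM), whose neighbours in the order overlapped. *gcga* (2.83 ± 0.572 FPKM) overlapped with *nkx2.2a* (2.16 ± 0.331 FPKM), and *pdx1* (1.25 ± 0.11 FPKM) lay above *ins* (0.844 ± 0.334 FPKM). All 5 transcription factor genes thus lay above *ins* in siblings, within the doubt on the *ins* count given above.

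In mutants, *neurod1* (28.8 ± 2.16 FPKM), *isl1* (21.4 ± 0.61 FPKM) and *pcsk2* (18.1 ± 0.681 FPKM) again led the order. *gcgb* came next at 15.2 ± 3.4 FPKM and overlapped with *pcsk2*, ahead of *pcsk1* (11.8 ± 0.434 FPKM) and *pax6b* (6.04 ± 0.601 FPKM). At the lower end, *ins* (0.692 ± 0.0774 FPKM) lay above *pdx1* (0.424 ± 0.186 FPKM), the reverse of their order in siblings, on at most 10 counts of each gene in a mutant library.

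**Figure D4:**
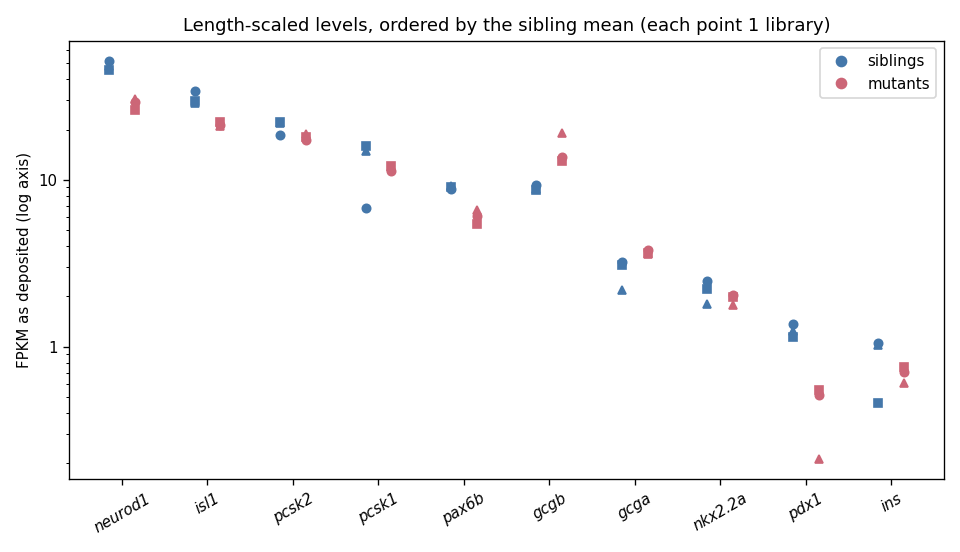
FPKM of the 10 islet genes on a log axis, ordered by the sibling mean, with 1 point for each library and siblings in blue. *neurod1* was the highest in both groups (48.5 and 28.8 FPKM on average), *gcgb* was higher in mutants (8.92 against 15.2 FPKM), and *pdx1* and *ins* were the lowest.

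The levels of *ins* over the 6 libraries were compared with those of every tested gene, each centred on its sibling mean on the log2 scale. A small constant count was added before the log, which weighs most on genes with few counts such as *ins*. The 5 nearest genes were *zgc:193812*, *si:ch211-147m6.2*, *si:ch211-223a21.1*, *otol1a* and *tamm41*, with a mean absolute difference of 0.06 to 0.10. In all, 7 genes lay within 0.1, and *ins* had only 4 to 9 counts in a library.

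The list of other islet transcription factor genes held 20 symbols in 21 table lines, of which 16 were tested, 6 (37.5%) were lower and 1 (6.25%) was higher beside 14.3% and 13.6% over all tested genes, with a median log2 fold change of -0.24. *insm1a*, which encodes a zinc-finger factor of neuroendocrine differentiation, stood at 58.7, 52.6 and 54.0 CPM in siblings and at 19.3, 20.3 and 20.5 CPM in mutants. It was 2.75-fold lower (log2 fold change -1.46, SE 0.08, adjusted p = 8.4e-06 from edgeR). Its duplicate *insm1b* was 2.24-fold lower, from 41.6 ± 3.47 CPM to 18.6 ± 0.131 CPM (SD, n = 3; adjusted p = 5.2e-05 from edgeR).

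*sox4b*, needed for endocrine differentiation in zebrafish, fell from 91.1 ± 5.02 CPM to 69.6 ± 5.34 CPM (SD, n = 3; log2 fold change -0.39, adjusted p = 0.0073 from edgeR). The gene called higher, named after its value was seen, was *nkx6.1*, a factor of beta cell progenitors and motor neurons. It stood at 13.0, 15.0 and 15.7 CPM in siblings and at 20.7, 19.4 and 19.3 CPM in mutants (log2 fold change 0.44, SE 0.11, adjusted p = 0.02 from edgeR), and this call did not hold without mutant 1 or without mutant 2. *insm1a*, *insm1b* and *sox4b* are also transcribed in retina and brain, whose markers are given above.

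Of 18 genes for secretory granules and hormone processing, all tested, 4 (22.2%, beside 14.3% over all tested genes) were lower and none was higher, with a median log2 fold change of -0.16. The 4 were *chgb*, *vgf*, *scg2b* and *ptprna*, which encode proteins of dense-core granules in endocrine cells and neurons. *chgb* stood at 49.3, 54.7 and 50.9 CPM in siblings and at 34.9, 33.9 and 37.4 CPM in mutants (log2 fold change -0.54, SE 0.08, adjusted p = 0.0014 from edgeR). *vgf*, *scg2b* and *ptprna* had log2 fold changes of -0.61, -0.33 and -0.33. With sibling 2 left out, or mutant 1, 2 genes of this list were called. Over all tested genes, 3094 and 2638 were called lower in these fits, against 3556 with all libraries.

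The glucose-sensing list held 4 genes, of which 3 were tested. Of the 3, 1 (33.3%) was lower and none was higher, beside 14.3% and 13.6% over all tested genes. The median log2 fold change was 0.07. *slc2a2*, a glucose transporter of beta cells, liver and gut, was lower, at 55.5, 58.3 and 55.4 CPM in siblings and 38.0, 42.7 and 28.7 CPM in mutants (log2 fold change -0.63, SE 0.13, adjusted p = 0.00853 from edgeR). *abcc8*, a subunit of the ATP-sensitive potassium channel, had 14.3 ± 0.878 CPM in siblings and 15.0 ± 1.49 CPM in mutants (SD, n = 3; adjusted p = 0.715 from edgeR). *gck*, the glucokinase gene, ranged from 2.43 to 17.9 CPM among siblings and from 10.8 to 24.3 CPM among mutants. It did not pass (log2 fold change 0.52, adjusted p = 0.544 from edgeR). *kcnj11* was at 0 in all libraries.

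Among 8 tested genes for insulin and glucagon receptors and insulin receptor substrates, *irs2b* was lower and 7 did not pass, and this share of 12.5% was near the 14.3% over all tested genes. *irs2b* stood at 64.6, 87.2 and 82.3 CPM in siblings and at 47.7, 57.4 and 55.5 CPM in mutants (log2 fold change -0.54, SE 0.12, adjusted p = 0.0115 from edgeR). With DESeq2, without sibling 1 or without mutant 3, 2 genes of this list were called lower. The insulin receptor genes *insra* and *insrb* had log2 fold changes of 0.14 and 0.47 (adjusted p = 0.128 and 0.213 from edgeR), and *insrb* had its lowest value in sibling 1 (26.6 CPM against 60.7 and 59.4 CPM in the other siblings). Without sibling 1 the log2 fold change of *insrb* was 0.18 (adjusted p = 0.0738 from edgeR). *irs2a* had a log2 fold change of -0.39 (adjusted p = 0.0729 from edgeR), and passed without sibling 1 (-0.46, adjusted p = 0.048) or without mutant 3 (-0.55, adjusted p = 0.0143).

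Of 12 genes known as targets of insulin or glucagon signaling, mostly in liver, 6 (50%) were lower and 1 (8.33%) was higher. *pck1*, the cytosolic enzyme that commits carbon to glucose synthesis, stood at 819, 914 and 696 CPM in siblings and at 353, 381 and 411 CPM in mutants. It was 2.12-fold lower (log2 fold change -1.09, SE 0.10, adjusted p = 0.000151 from edgeR), and its mitochondrial counterpart *pck2* was 1.80-fold lower (adjusted p = 0.000447). *igfbp1b*, an IGF-binding protein gene whose mammalian counterpart is repressed by insulin, fell from 15.0 ± 2.53 CPM to 5.28 ± 0.424 CPM (SD, n = 3; log2 fold change -1.51, adjusted p = 0.000305 from edgeR). *pygl*, the liver glycogen phosphorylase, was higher, at 145, 127 and 131 CPM in siblings and 218, 211 and 190 CPM in mutants (log2 fold change 0.62, SE 0.08, adjusted p = 0.000621 from edgeR). The liver marker *fabp10a* moved with the lower genes, from 227 ± 8.28 CPM to 34.1 ± 7.38 CPM (SD, n = 3), and its part in their values was not tested. Over the 6 lists of islet and hormone genes together, 60 genes were tested, 2 (3.33%) were higher and 18 (30%) were lower, beside 13.6% and 14.3% over all tested genes.

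Among 2075 deposited splicing events that had passed the authors' test, 2 lay in an islet gene, and both were skipped exons of *pax6b*. An inclusion level is the share of transcripts with the exon, estimated from reads over its junctions. The event tables call the groups only 1 and 2. Group 1 is read here as the mutants, because the tables set mutants against controls, and the values within a group cannot be tied to single libraries. Since only events past that test were deposited, no test was run on them. Coordinates are those of the GRCz11 build named in the submitters' processing notes.

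The shorter *pax6b* exon spans 39 bases (chromosome 7 from 15882734 to 15882772, plus strand). Its inclusion level was 0.46, 0.401 and 0.229 in siblings and 0.14, 0.137 and 0.411 in mutants, from 48 to 77 and from 30 to 47 junction reads. The groups overlapped, with 1 mutant value near the top of the sibling range. The longer *pax6b* exon spans 142 bases (15894507 to 15894648) and was included at 0.761, 0.844 and 0.915 in siblings and at 0.606, 0.795 and 0.564 in mutants, from 94 to 162 and from 60 to 77 reads. Its mean was 0.84 ± 0.0771 against 0.655 ± 0.123 (SD, n = 3), again with an overlap.

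The duplicate *pax6a* also had 2 skipped exons among these events. An exon of 72 bases (chromosome 25 from 15042784 to 15042855, minus strand) was included at 0.457, 0.447 and 0.438 in siblings and at 0.288, 0.243 and 0.271 in mutants, with no overlap. An exon of 22 bases (15041707 to 15041728) was included at 0.066, 0.1 and 0.148 in siblings and at 0.022, 0.044 and 0.077 in mutants, which overlapped.

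*pam*, which encodes the enzyme that amidates peptide hormones in secretory granules, had an exon of 303 bases (chromosome 10 from 5760244 to 5760546, plus strand) at 0.346, 0.367 and 0.354 among siblings and at 0.178, 0.156 and 0.109 among mutants. The groups were far apart in inclusion, while the gene's level did not pass the test, with 165 ± 6.53 CPM in siblings and 176 ± 6.66 CPM in mutants (SD, n = 3; adjusted p = 0.281 from edgeR). In the target list, an exon of 106 bases in *g6pca.1* was included at 0.979 ± 0.00611 in siblings and 0.898 ± 0.0616 in mutants (SD, n = 3). Reads that skipped this exon were few, at 2, 2 and 1 in siblings and 2, 3 and 6 in mutants. Its mutant values were 0.94, 0.926 and 0.827. The *gipr* event, an alternative 3′ splice site, rested on 2 to 17 reads and its groups overlapped.

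**Figure D5:**
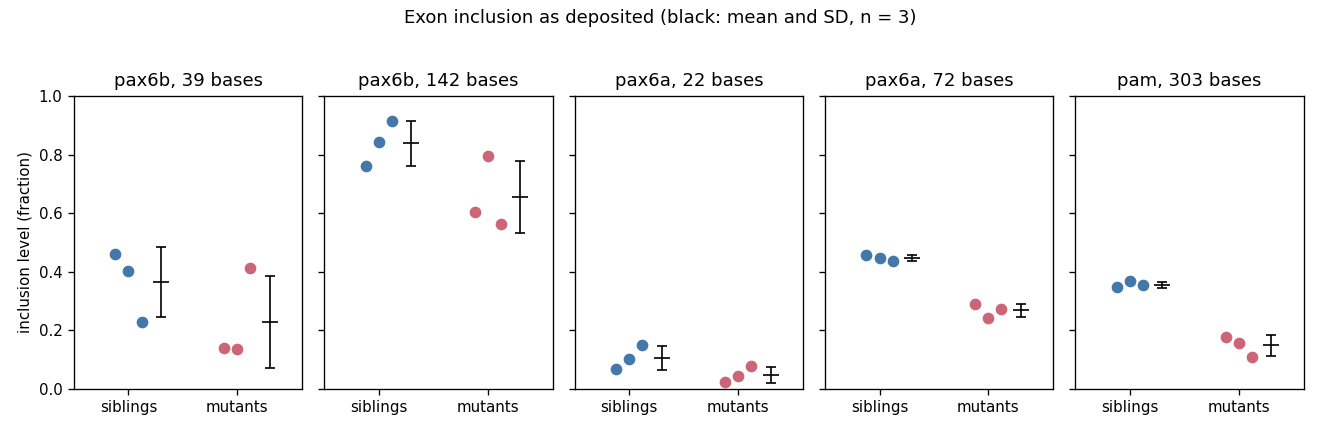
Inclusion level, as a fraction from 0 to 1, of the skipped exons of *pax6b*, *pax6a* and *pam* in siblings and mutants, with 3 values in each group and the mean and SD in black. The groups are separate for the 72-base exon of *pax6a* and the 303-base exon of *pam* (0.346 to 0.367 against 0.109 to 0.178), and overlap for both *pax6b* exons and the 22-base exon of *pax6a*.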

How the data were processed

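Total RNA of whole larvae was sequenced from libraries made with a NEBNext Ultra RNA kit. The authors deposited, for each of 37898 genes and 6 libraries, counts of reads without normalization and FPKM made from those counts. HISAT2 2.0.5, featureCounts 1.5.0-p3 and the GRCz11 build are named in the submitters' processing notes. Whether counting used strand is not given in the sources used here, so reads of genes overlapping on opposite strands cannot be told apart. The authors also deposited rMATS tables of events that passed their test, with junction read counts and the inclusion level as a fraction, and the tables' own p-values and differences were not used. No table line lacked a gene and no column given per library was left unused.

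Counts were tested with edgeR 4.0.16 in R 4.3.3 (filterByExpr, TMM, quasi-likelihood test, Benjamini-Hochberg adjustment over all 24809 tested genes), 3 mutants against 3 siblings, without covariates. For CPM, each library's size was multiplied by its TMM factor (0.975 to 1.015). 95% intervals of a count are exact Poisson intervals. Ratios between genes were compared with exact permutation tests. The scripts were tested on simulated data. Figures and ratios were made with Python 3.11.15, pandas 2.3.3, numpy 2.4.6, scipy 1.17.1 and matplotlib 3.10.9. Alternatives were DESeq2 1.42.0, RLE and upper-quartile factors, limma-voom (limma 3.58.1), no filter beyond 1 count per gene, a filter of 10 counts per library, a replicate block and the omission of single libraries. Numbers of genes were also taken with a limit of 1 on the absolute log2 fold change. For ratios they were the deposited FPKM, 0.5 counts added and the omission of single libraries. Libraries of a group differed by more than sampling noise (chi-square per degree of freedom 4.47 to 13.6), and each was counted as 1 replicate.

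The members, the gene lists and the alternatives were chosen with earlier results of these data known. Named are the 10 genes, every other islet hormone with a count, *pax6a*, *nkx2.2b*, *sart3*, up to 4 genes with the smallest adjusted p in each other list, genes of the 6 islet and hormone lists with a splicing event, and the 5 tested genes nearest to *ins*. Listed genes at 0 in all libraries and the remaining tested enteroendocrine markers are named as well. *iapp*, *scg2a* and *glp1r* were not among the table's symbols, and *scg5* and *ascl1b* each had 2 identifiers, counted separately. No sequence is printed, as no sequence table was used here.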

Additional observations from a re-analysis of the deposited data

How the results depend on the processing

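*neurod1*, *isl1* and *pax6b* kept their direction and their call in all 13 alternative fits, and *gcga* and *nkx2.2a* stayed uncalled in all 13. *gcgb* kept its call in 11 alternatives and lost it in 2, *pdx1* kept it in 8 and lost it in 4, each time with a single library left out, and *pdx1* was not tested where at least 10 counts were required in every library. *pcsk1* changed sign to 0.016 on the log2 scale with limma-voom, and ranged from -0.39 to 0.12 with each library left out. The number of islet genes called higher was 0 to 1 and the number called lower 3 to 5 with each library left out, and they were 0 and 1 with a limit of 1 on the absolute log2 fold change. Over the 6 islet and hormone lists, 1 to 2 genes were called higher and 12 to 19 lower with each library left out, and 0 and 4 with that limit. The calls over all genes moved as well when each library was left out. Of 25258 to 25314 tested genes, 2226 to 3480 were then called higher and 2480 to 3605 lower. With all libraries, 3368 and 3556 of 24809 were called. The log2 ratio of *pcsk1* to *pcsk2* ranged from -0.11 to 0.39 with each library left out. The cause of these changes was not tested.

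No deviation shared by same-numbered libraries was seen: their deviations correlated at 0.05, 0.02 and -0.10, beside -0.09 to 0.07 for libraries with different numbers. These values cannot show whether libraries were collected as pairs. With a replicate block, 2869 genes were called higher and 3072 lower, against 3368 and 3556 without it, the log2 fold change of *pcsk1* was 0.000288, and no call of the 9 tested islet genes changed. Depth limits *ins*, *ghrl* and *pdx1*. RNA of whole larvae does not separate islet from other cells. This limits what *neurod1*, *isl1*, *pax6b*, the convertase genes and the hormone genes say of the islet.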

Other observations

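Peptide hormone genes of other endocrine cells, which share convertases and granule proteins with the islet, differed in part between the groups. Of 10 enteroendocrine cell markers, 7 were tested, and *insl5a* was at 0 in all libraries. Of the 7, 2 (28.6%) were lower and none was higher, beside 14.3% and 13.6% over all tested genes. *vipb*, which encodes a vasoactive intestinal peptide, stood at 6.84, 5.09 and 7.83 CPM in siblings and at 4.28, 3.12 and 2.39 CPM in mutants (log2 fold change -1.01, SE 0.26, adjusted p = 0.0221 from edgeR). *mlnl*, a motilin-like gene of the gut, was 1.89-fold lower, from 1.86 ± 0.21 CPM to 0.979 ± 0.0472 CPM (SD, n = 3; adjusted p = 0.0399 from edgeR). *ccka* and *pyyb*, genes for the gut hormones cholecystokinin and peptide YY, had log2 fold changes of -0.43 and -0.24 and did not pass (adjusted p = 0.0998 and 0.199 from edgeR), although their libraries did not overlap. The other tested markers were not called either. *pyya* and *trpa1b* had positive log2 fold changes of 0.20 and 0.14, and *adcyap1a* had one of -0.09. Neither the *vipb* nor the *mlnl* call held in every fit with a single library left out. *vipb* did not pass without sibling 3, mutant 2 or mutant 3 (adjusted p 0.0637 to 0.0817 from edgeR). *mlnl* passed only with all libraries or without sibling 1 (adjusted p 0.09 to 0.119 from edgeR in the other fits). The summed level of the list was 48.4 to 50.1 CPM in siblings and 41.4 to 42.6 CPM in mutants.

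Among pituitary hormone genes, *gh1*, which encodes growth hormone, stood at 13.5, 18.5 and 15.8 CPM in siblings and at 6.89, 7.48 and 7.29 CPM in mutants (log2 fold change -1.14, SE 0.15, adjusted p = 0.000808 from edgeR). *pomca*, the gene for the precursor of corticotropin, had a log2 fold change of 0.58 with no overlap between the groups and did not pass (adjusted p = 0.112 from edgeR).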
